A study of Mus musculus with 2 samples.

Results

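The genes described here encode Mediator, the initiation factor TFIID and RNA polymerase II (Pol II), the machinery that starts messenger RNA synthesis. They were taken by symbol from the GENCODE annotation of the mouse mm10 assembly, as protein-coding genes of chromosomes 1 to 19 named Med, Polr2 or Taf with a number or subunit letter. The rule found 61 genes of 20780 coding genes on those chromosomes (21924 coding genes in all). By complex they were 28 Mediator genes, 13 Pol II genes, 13 TFIID genes and 7 other Taf genes, whose products work in the Pol I factor SL1, in the SAGA coactivator or as an RNA-binding protein.

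The assay was histone ChIP-seq for trimethylated lysine 36 of histone H3 (H3K36me3) in macrophages grown from C57BL/6J bone marrow without stimulation, with 10 ng of DNA per library and fragments of 350 to 480 bp. The study held 1 group of 2 biological replicates and no treated or mutant group, so values are given for each replicate (n = 2), no test was possible, and sex and age were not collected. Both replicates stood under the same donor record, so their spread may be technical. A control experiment named in the labels was not analysed here.

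Mediator relays signals from bound activators to the polymerase through its head, middle and tail modules, and a detachable kinase module restrains it. TFIID, made of the TATA-binding protein and TBP-associated factors (the Taf proteins), recognises core promoters. Pol II then transcribes the gene, and the methyltransferase Setd2, which binds the elongating polymerase, places H3K36me3 on the nucleosomes behind it, so the mark usually lies over the body and later parts of transcribed genes. The readout used below is body coverage, the percent of bases between the annotated start and end of a gene that lie under deposited peaks. A gene was called marked when coverage was at least 20% in both replicates.

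Several sequences show where the mark lay and what the genes carry there. The tail of Polr2a is the part of Pol II that Setd2 binds, in its phosphorylated form. It is encoded by heptad repeats in the last coding exon (chr11:69734413-69735566, mm10, minus strand, 1154 bp), which holds 21 copies of the consensus heptad. A run of 12 consecutive copies, each of 21 bp, occupies chr11:69735166-69735417 on the minus strand. Peaks covered 35.3% of this stretch in replicate 1 and 64.7% in replicate 2, and 20.6% and 92.3% of the exon. Capitals mark the tyrosine codon that opens each repeat.
Polr2a repeats: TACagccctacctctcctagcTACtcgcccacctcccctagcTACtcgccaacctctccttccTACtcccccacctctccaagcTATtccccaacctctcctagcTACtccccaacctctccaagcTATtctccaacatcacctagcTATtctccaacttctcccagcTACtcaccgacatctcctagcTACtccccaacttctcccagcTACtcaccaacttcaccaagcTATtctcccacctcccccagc

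Of all peaks touching the 61 genes, the one with the highest deposited enrichment (a ratio over the background used by the authors' caller) lay on Polr2g in replicate 2. Its enrichment was 6.95, against 4.47 for the replicate 1 peak on the same gene, and it ran from chr19:8792711 to 8795714. The 120 bp around its summit, chr19:8793718-8793837 on the minus strand, are intronic, lie 4.80 kb into a gene of 5.45 kb, and were covered in both replicates. A second summit shows a gene on which the replicates differed. Taf1c was covered at chr8:119601220-119601339 (minus strand) in replicate 2 and not in replicate 1, by a peak of 1288 bp with an enrichment of 4.51. Capitals mark coding exon bases, 33 of 120 in Taf1c and none in Polr2g.
Polr2g summit: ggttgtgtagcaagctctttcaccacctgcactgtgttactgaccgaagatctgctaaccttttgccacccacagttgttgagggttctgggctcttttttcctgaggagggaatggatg
Taf1c summit: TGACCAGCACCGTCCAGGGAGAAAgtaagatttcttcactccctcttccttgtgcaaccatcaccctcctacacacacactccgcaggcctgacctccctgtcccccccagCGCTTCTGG

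The start of each gene is the contrasting region. No base of the 250 bp before the RefSeq start was covered in either replicate for Med17 (chr9:15279907-15280156, minus strand) and Polr2b (chr5:77310234-77310483, plus strand), which were among the most covered genes. Both promoters come from RefSeq (GRCm38.p6, the assembly of mm10), where 51 of the 61 genes had a matching entry. The gene bodies used for coverage begin upstream of these RefSeq starts, at chr5:77310147 for Polr2b and chr9:15279931 for Med17. The whole Polr2b stretch thus lies inside its gene body, and the Med17 stretch overlaps its own in part. Capitals mark the ETS core CCGGAAG and the letters GCGCATGC, which are part of the NRF1 motif.
Med17 promoter: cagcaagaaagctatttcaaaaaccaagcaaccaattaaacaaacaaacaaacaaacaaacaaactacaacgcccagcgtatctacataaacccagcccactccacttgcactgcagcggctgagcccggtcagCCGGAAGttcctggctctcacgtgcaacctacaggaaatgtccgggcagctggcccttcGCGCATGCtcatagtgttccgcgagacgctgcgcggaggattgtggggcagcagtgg
Polr2b promoter: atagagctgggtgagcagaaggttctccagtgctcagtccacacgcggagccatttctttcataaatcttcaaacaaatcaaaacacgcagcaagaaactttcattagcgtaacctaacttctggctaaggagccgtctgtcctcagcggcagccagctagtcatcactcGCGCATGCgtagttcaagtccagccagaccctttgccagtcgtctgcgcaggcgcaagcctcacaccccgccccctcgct
Searched on both strands over 250 bases before to 50 after the start, CCGGAAG occurred in 17 of the 51 promoters (33.3%), against 12.6% of 15686 coding genes. GCGCATGC occurred in 7 (13.7%), against 3.79%. TATAAA occurred in 7 (13.7%), against 12.9%. Promoters of all marked coding genes held them in 27.5%, 7.42% and 6.01% of cases. Promoters with both CCGGAAG and GCGCATGC numbered 5, and their matches did not overlap. The median ratio of observed to expected CpG was 0.855 in the 51 promoters, 0.815 in those of marked coding genes and 0.614 in those of all coding genes. These matches describe letters and say nothing of binding.

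As a whole, genes of the initiation machinery carried H3K36me3 more often than coding genes in general. Of the 61 genes, 14 were marked (23.0%), where the share among all coding genes was 8.03%. In replicate 1, 14 reached 20% (background 8.06%), and in replicate 2, 39 did (background 24.6%). Without replicate 1 the count was therefore 39 in place of 14. A peak was absent from both replicates on 8 of the 61 genes, against 59.8% of all coding genes. The median gene was covered to 5.07% in replicate 1 and 30.0% in replicate 2, where the median over all coding genes was 0 in each. The 61 genes were chosen by name and share a general function, so these shares describe them and carry no test.

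The replicates differed in how much was called. Replicate 1 held 32098 peaks over 28.5 Mb and replicate 2 held 58505 peaks over 79.4 Mb. Over the 61 gene bodies (2007 kb) peaks covered 156 kb in replicate 1 and 409 kb in replicate 2. Of the replicate 1 bases, 89.9% lay inside replicate 2 peaks, while 34.3% of the replicate 2 bases lay inside replicate 1 peaks. Coverage was higher in replicate 2 on 52 genes, and 17 genes had a peak only there. The order of the genes was shared in part, at a Pearson r of 0.76 (Spearman rho 0.74) over the 61 genes, which are not independent and share the same libraries. The lists hold no read counts, so depth is unknown, and its part in this difference was not tested.

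The macrophage label was checked against marker genes. All 10 macrophage markers had at least 20% coverage in replicate 2 (background 24.6%), and 5 were marked (background 8.03%). Adgre1, which encodes F4/80, was marked, with 25.0% and 42.7% in replicates 1 and 2. Unmarked ones included Itgam, with 8.46% and 26.3%, and Cd68 and Lyz2, with no covered base in replicate 1. Markers of T cells, B cells, neutrophils, fibroblasts and male germ cells, 5 genes each, had no covered base in either replicate. The same held for 59.8% of all coding genes.

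**Figure D1:**
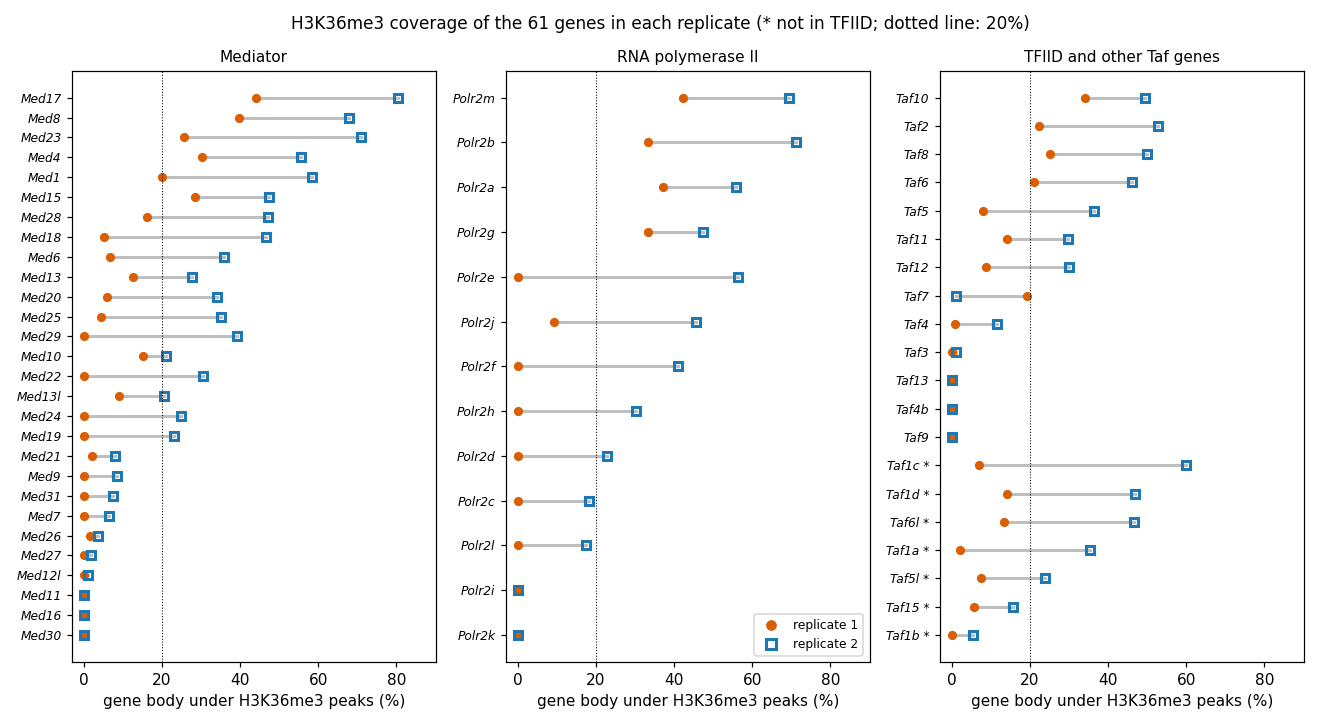
Body coverage of each of the 61 genes, in percent of the gene body under H3K36me3 peaks, with filled circles for replicate 1 and open squares for replicate 2, by complex. Mediator runs from Med17 with 44.0% and 80.5% to 3 genes at 0, Pol II from Polr2m to 2 genes at 0, and TFIID from Taf10 to 3 genes at 0.

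Mediator showed marked genes in each of the core modules and wide differences between subunits. Of 28 genes, 6 were marked, 18 reached 20% in replicate 2 and 3 had no peak in either replicate. Median coverage was 3.22% in replicate 1 and 26.2% in replicate 2.

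Med17, a scaffold of the head module, stood highest of all 61 genes. Its body (chr9:15260351-15279931, minus strand, 19.6 kb) was covered to 44.0% by 8 peaks in replicate 1 and to 80.5% by 6 peaks in replicate 2. Med8, another head subunit, had 39.8% and 67.9% over chr4:118409337-118415782 (plus strand, 6.45 kb). These 2 were the marked genes among 7 of the head, whose medians were 5.83% and 35.9%. Med18 had 5.07% and 46.6%, Med6 6.74% and 35.9%, Med20 5.83% and 34.1%, and Med22 0 and 30.4%, all far higher in replicate 2. Med20 lies almost wholly inside the readthrough record Gm20517 on its own strand, so its bases cannot be assigned to either record alone. Med11, a head gene of 1.81 kb, had no peak.

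In the middle module, which contacts the polymerase, 2 of 9 genes were marked and the medians were 1.63% and 8.54%. Med4 had 30.3% and 55.6% over chr14:73510025-73518849 (plus strand, 8.82 kb). Med1, the subunit bound by nuclear receptors, had 20.1% and 58.5% over chr11:98152154-98193293 (minus strand, 41.1 kb), so in replicate 1 it was barely over the limit. Med10, with 15.0% and 21.0%, and Med19, with 0 and 23.2%, reached 20% only in replicate 2. The other middle genes were low in both replicates. Med9 had 0 and 8.54%, Med21 2.19% and 7.89%, Med31 0 and 7.55%, Med7 0 and 6.40%, and Med26 1.63% and 3.55%. Med26, which recruits elongation factors, carried its few covered bases at the very end: its first 52.3 kb of 53.7 kb were bare in replicate 1 and its first 51.0 kb in replicate 2.

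The tail module, the main target of activators, had 2 marked genes of 5, and medians of 4.26% and 35.1%. Med23 had 25.6% and 70.9% over chr10:24869986-24913681 (plus strand, 43.7 kb), and Med15, bound by many activators, had 28.3% and 47.4% over chr16:17651208-17732891 (minus strand, 81.7 kb). Med25 had 4.26% and 35.1%, and Med24 0 and 24.7%. Med16 had no peak in either replicate, while the authors' pooled list covered 7.03% of it and their replicated list 9.41%. Among the 4 subunits that sources place in head or tail, Med28 had 16.1% and 47.0%, Med29 0 and 39.1%, Med27 0 and 1.83%, and Med30 no peak (4.17% in each combined list), so none was marked.

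The kinase module holds the longest genes of the set, with a median of 205 kb over the 3 on these chromosomes, and none was marked. Med13, which tethers the kinase to the core, had 12.5% and 27.7%, and its paralogue Med13l had 8.96% and 20.6%. On Med13l the covered bases lay in the later part of the gene. The first 120 kb were bare in replicate 1 and the first 110 kb in replicate 2. The rest of the gene was covered to 21.7% and 44.4%. The cut was placed at the first covered base of each replicate, so a higher percent after it follows from the cut. In replicate 1, no further peak lay between chr5:118682551 and 118721309.

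Among Pol II genes, the marked ones encode subunits of Pol II alone or its bound partner Polr2m. Of 13 genes 4 were marked, 9 reached 20% in replicate 2 and 2 had no peak, with medians of 0 and 41.1%. Of 7 genes for subunits of Pol II alone, 3 were marked (medians 9.36% and 45.5%), and of 5 genes for subunits shared with Pol I and Pol III none was marked (medians 0 and 30.3%). The shared group also held 4 of the 5 Pol II genes shorter than 5 kb, so function and gene length cannot be told apart here.

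Polr2b, the second-largest subunit, had 33.4% and 71.3% over chr5:77310147-77349324 (plus strand, 39.2 kb), from 18 peaks in replicate 1 and 16 in replicate 2. Polr2a, the largest, catalytic subunit, had 37.2% and 55.8% over chr11:69733997-69758637 (minus strand, 24.6 kb). Its first 11.2 kb and 10.2 kb were bare, and the rest, cut at the first covered base, was covered to 68.2% and 95.3%. Polr2m encodes Gdown1, a protein bound to Pol II that competes with an initiation factor, and it had 42.3% and 69.4% over chr9:71478437-71485935 (minus strand, 7.50 kb). The stalk of the enzyme is a pair of subunits: Polr2g had 33.3% and 47.5%, and its partner Polr2d had 0 and 22.7%. The assembly pair was Polr2j with 9.36% and 45.5% and Polr2c with 0 and 18.1%. On Polr2c, 65.0% of the covered bases lay where Dok4 overlaps it on the opposite strand. Polr2i, a gene of 1.44 kb, had no peak.

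Among the shared subunits no gene had any covered base in replicate 1. In replicate 2, Polr2e had 56.2%, Polr2f 41.1%, Polr2h 30.3% and Polr2l 17.4%, and Polr2k had none, though the authors' replicated list covered 16.9% of it. Polr2e and Polr2f were among the 5 genes with the largest gap between replicates, at 56.2 and 41.1 percentage points, with Taf1c (52.8), Med23 (45.4) and Med18 (41.5).

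TFIID had 4 marked genes of 13, 7 at 20% or more in replicate 2 and 3 with no peak, with medians of 8.84% and 29.7%. Taf2, which contacts promoter DNA, had 22.2% and 52.7% over chr15:55015131-55072152 (minus strand, 57.0 kb). Taf8 had 25.0% and 49.9% over chr17:47483364-47502292 (minus strand, 18.9 kb), and no other coding gene overlaps either of them. The remaining marked genes lie across a neighbour. Taf10, with 34.2% and 49.4% over chr7:105739393-105744361 (minus strand, 4.97 kb), had all its covered bases, 1697 bp and 2455 bp, inside Ilk on the opposite strand, which was itself covered to 26.8% and 38.8%. Taf6, with 21.1% and 46.1% over chr5:138178617-138187451 (minus strand, 8.84 kb), had 66.2% and 44.5% of its covered bases inside Ap4m1, and its part outside Ap4m1 was covered to 8.99% and 32.2%. ChIP-seq carries no strand, so peaks there cannot be told apart between the genes. With only bases that no other coding gene overlaps, 12 of the 61 genes were marked, and Taf10 and Taf6 were the genes lost.

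Several TFIID subunits pair through a histone fold, and partners were covered unequally. Taf6 was marked and its partner Taf9, whose locus overlaps Ak6 on the same strand, had no covered base. Taf12 had 8.84% and 30.0%, and its partner Taf4 had 0.915% and 11.6%. Taf11 had 14.2% and 29.7%, and its partner Taf13 had none (2.21% in the authors' replicated list). Taf10 and its partner Taf8 were both marked, while its other partner Taf3, a gene of 134 kb whose product reads H3K4me3, had 0 and 1.07%. Taf5, a scaffold of the complex, had 7.97% and 36.4%.

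Taf7 went against the pattern of the libraries, as the only gene of the 61 covered more in replicate 1. Its 3.71 kb held 19.1% and 1.00%, which is 711 bp and 37 bp, and the authors' combined lists gave 3.93% when pooled and 38.2% when replicated. The gene sits inside 3 long records on the opposite strand, Gm42416, Gm37013 and Gm37388.

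Of the 7 other Taf genes none was marked, where the share among all coding genes was 8.03%, so with 7 genes this count says little. In replicate 2, 5 reached 20% (background 24.6%), and each had a peak there. The medians were 6.99% and 35.3%, beside 5.07% and 30.0% over all 61 genes. The 4 genes of SL1, which brings Pol I to ribosomal DNA, were Taf1c with 6.99% and 59.8%, Taf1d with 14.0% and 46.9%, Taf1a with 2.17% and 35.3%, and Taf1b with 0 and 5.47%. On Taf1c every covered base of replicate 1 lay where Dnaaf1 overlaps it, against 13.3% in replicate 2. Taf1d would be marked with its longest coding transcript in place of the full span, at 21.0% and 31.7%. Taf15, an RNA-binding protein, had 5.75% and 15.7%.

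The limit of 20% falls among close values of replicate 1. Just below it were Med10 (15.0%), Med28 (16.1%) and Taf7 (19.1%, with 1.00% in replicate 2), and just above it Med1 (20.1%), Taf6 (21.1%) and Taf2 (22.2%).

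**Figure D2:**
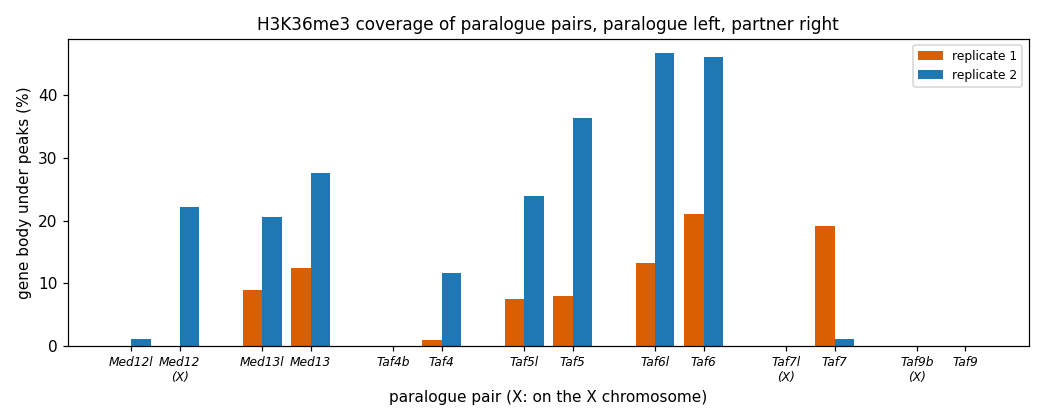
Body coverage in percent for 7 paralogue pairs, the paralogue left of its partner, with bars for replicates 1 and 2. Taf6l and Taf6 stand side by side in replicate 2 at 46.7% and 46.1%, while Taf4b, Taf7l, Taf9b and Taf9 have no bar.

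The paralogues known from gonads were bare, as were 59.8% of all coding genes, and a link to tissue was not tested. Taf4b, known from ovary and testis, had no covered base over 117 kb, against 0.915% and 11.6% on Taf4. Taf7l, an X-linked gene known from testis and outside the chromosomes counted, had none, against 19.1% and 1.00% on Taf7. Taf9b, also X-linked, and Taf9 both had none, so that pair showed no difference. Med12l had 0 and 1.04%, against 0 and 22.2% on X-linked Med12, and all 3255 covered bp of Med12l, in 3 peaks of replicate 2, lay within P2ry14 on the opposite strand. P2ry14 encodes a nucleotide-sugar receptor and was covered to 8.19%.

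The 3 other paralogues were covered in both replicates, as were their partners, and each had a lower percent than its partner in replicate 1. In covered bases the order turned on the longer Med13l, with 18339 bp against 11291 bp on Med13, and on Taf5l, with 1870 bp against 1254 bp on Taf5. Taf6l, the SAGA counterpart of Taf6, had 13.3% and 46.7%, against 21.1% and 46.1% on Taf6. Taf5l, the SAGA counterpart of Taf5, had 7.46% and 23.9%, against 7.97% and 36.4% on Taf5, and lies inside the long record Gm20388. Med13l had 8.96% and 20.6%, against 12.5% and 27.7% on Med13. In the plot of 7 paralogue pairs, no paralogue passed 20% in both replicates, and among the partners only Taf6 did. Of all coding genes on chromosomes 1 to 19, 8.03% did, so counts among 7 genes say little. Outside Ap4m1, Taf6 had 8.99% in replicate 1. Of the X-linked relatives, Taf1, the largest TFIID subunit, had 0 and 1.40%, and Med14, the backbone of Mediator, had 0 and 1.01%. Med12 was the only 1 of 5 X-linked relatives at 20% or more in replicate 2, beside 24.6% of coding genes on chromosomes 1 to 19. None of the 5 had a peak in replicate 1. No share over X-linked genes was computed and sex was not collected, which limits comparisons between X-linked genes and the others.

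**Figure D3:**
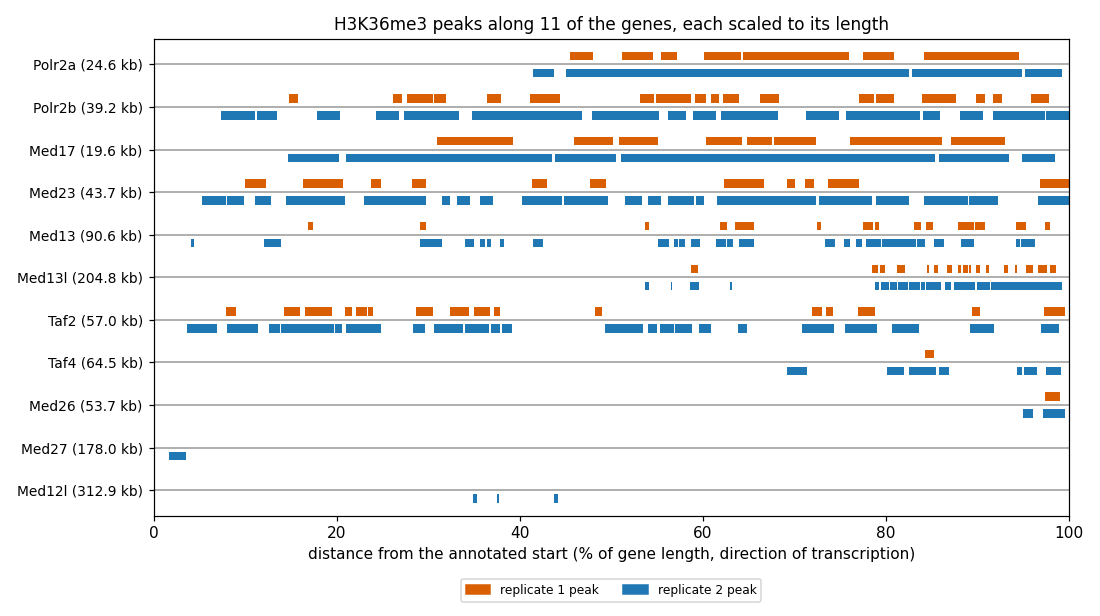
Peaks of replicate 1 (upper bars) and replicate 2 (lower bars) along 11 of the genes, each scaled to its own length in the direction of transcription (x axis, percent of the gene from its start). Polr2a and Med13l are bare over their first part in both replicates, Polr2b and Taf2 carry peaks along most of their length, and Med27 has a peak only near its start.

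No peak lay close to a start. None of the 61 had a peak within 500 bp of its start in either replicate, and this was also rare among all coding genes (62 and 167 of 20780). On the 13 marked genes of at least 5 kb, the first covered base lay at a median of 5.80 kb from the start in replicate 1 (2.53 to 40.1 kb) and 2.87 kb in replicate 2 (1.50 to 17.5 kb). The longest gap was on Med15 in both, counted from the outermost annotated start. Med15 was covered to 32.3% and 54.0% of its longest coding transcript, against 28.3% and 47.4% of the full record. Its rank may depend on the start used. With each body cut into 10 equal bins, mean coverage of the 1st bin was 0.853% and 11.1%, and that bin was bare on 11 and 9 of the 13.

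**Figure D4:**
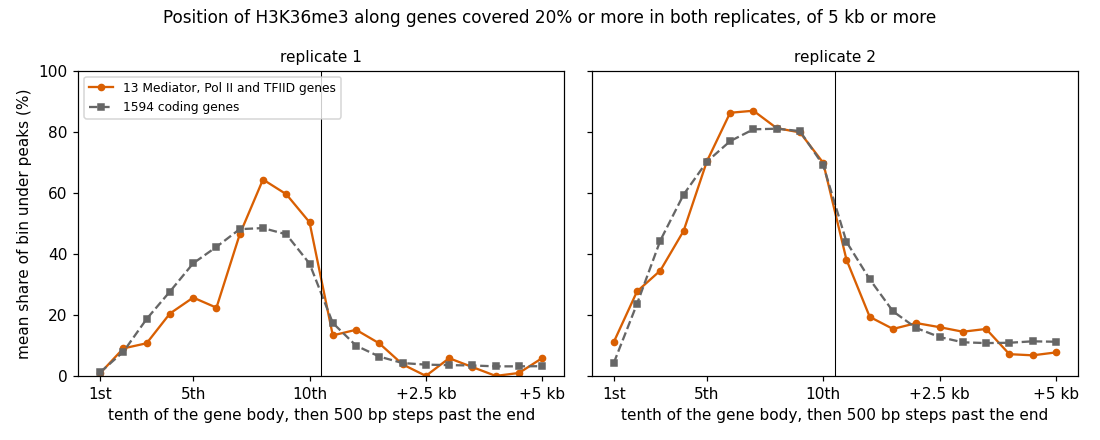
Mean percent of each of 10 equal bins of the gene body under peaks, and of each 500 bp step over 5 kb past the end, for the 13 marked genes of at least 5 kb (circles) and all 1594 marked coding genes of that length (squares), by replicate. Coverage of the 13 reaches 64.4% in the 8th bin in replicate 1 and 86.9% in the 7th bin in replicate 2, and drops past the annotated end.

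Averaged over the 13 genes, coverage was higher in the later bins than in the early ones. The highest bin was the 8th in replicate 1, at 64.4%, and the 7th in replicate 2, at 86.9%, and the last bin still had 50.4% and 69.8%. All 1594 marked coding genes of that length gave 48.4% and 81.0%, each in the 8th bin, and 36.8% and 69.0% in the last. The 13 genes lay below all marked genes in the 6th bin of replicate 1, with 22.4% against 42.3%, and above them in the 1st bin of replicate 2, with 11.1% against 4.24%. The highest bin differed between the complexes, each with few marked genes. The 6 Mediator genes were highest in the 8th bin in replicate 1 (69.9%) and the 7th in replicate 2 (95.8%), and the 4 Pol II genes in the 9th (78.5%) and the 8th (94.9%), with 69.5% and 94.1% left in the last bin. The 3 TFIID genes were highest in the 4th bin in replicate 1 (42.1%) and the 6th in replicate 2 (93.8%). They had 16.6% and 46.1% in the 9th bin, and 40.2% and 45.8% in the last. In replicate 1 their last bin was thus almost as high as the 4th. That last bin rested mostly on Taf6, with 95.5% and 100%, against 25.1% and 37.4% on Taf2 and 0 on Taf8. On Taf6 it lies inside Ap4m1, where peaks cannot be told apart between the genes. Past the end, coverage of the 13 genes fell quickly. The first 500 bp had 13.3% and 38.1%, and the last 500 bp of 5 kb had 5.85% and 7.69%. A peak ran over the annotated end on 3 and 7 of the 13 genes. With the bases of the 13 genes pooled, exons were covered to 40.9% and introns to 25.4% in replicate 1. In replicate 2 they had 67.7% and 56.2%. Longer genes weigh more in these shares than in the bin means. All marked coding genes of that length gave 38.9% and 28.1% in replicate 1, and 67.4% and 55.9% in replicate 2. Gene by gene, exons were the lower part on 1 of the 13 in replicate 1 (Med17) and on 6 in replicate 2 (Med1, Med4, Med17, Med23, Polr2g and Taf2), as on Med17 with 70.8% of exons and 83.1% of introns in replicate 2. Pooled over the 3′ part of the body alone, from its middle on, exons had 51.5% and 78.3% and introns 37.8% and 73.9%. On the 6 Mediator genes, pooled exons were lower in replicate 2, at 76.9% against 81.2% for introns.

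The lean toward the 3′ side held across the wider set and had exceptions. It was about as common among all coding genes, so it is not particular to these genes. The mean position of covered bases lay past the middle of the gene on 31 of 36 genes with a peak in replicate 1 and on 45 of 53 in replicate 2, beside 5282 of 6337 and 7242 of 8295 coding genes. Taf2, Taf8 and Taf6l lay before the middle in both replicates, and all 3 have coverage of 46% or more in replicate 2. Med27 had its only peak, of 3256 bp, 2.99 kb from the start of a gene of 178 kb. Taf4 was bare for its first 54.4 kb in replicate 1 and 44.7 kb in replicate 2, of 64.5 kb.

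**Figure D5:**
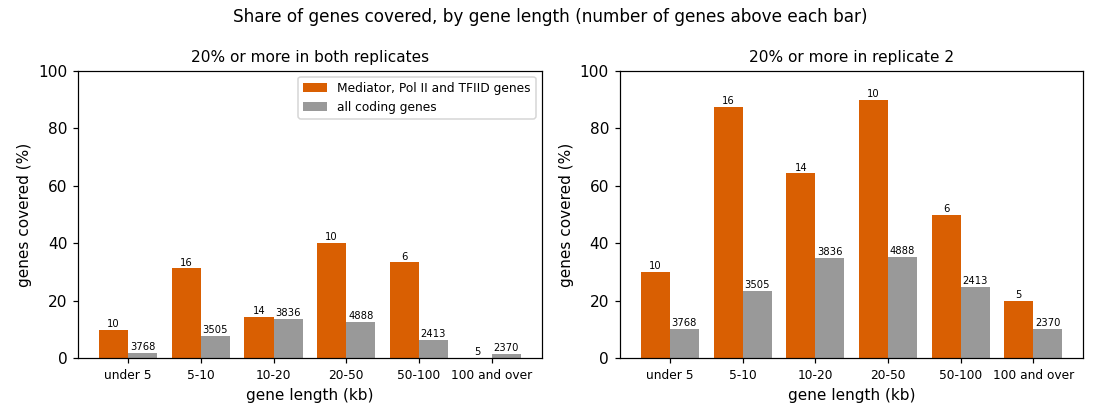
Percent of genes with at least 20% coverage in both replicates (left panel) and in replicate 2 (right panel) by gene length in kb, with the initiation machinery left and all coding genes right in each pair of bars, and the number of genes above each bar. In replicate 2 the 61 genes stand above all coding genes in each class, from 30.0% against 10.3% under 5 kb to 20.0% against 10.1% at 100 kb and over.

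The counts were also read by length class. The 61 genes had a median length of 12.8 kb, against 17.6 kb for all coding genes. In both replicates, 1 of 10 genes under 5 kb was marked (background 1.99%), 5 of 16 from 5 to 10 kb (7.73%), 2 of 14 from 10 to 20 kb (13.6%), 4 of 10 from 20 to 50 kb (12.5%), 2 of 6 from 50 to 100 kb (6.42%) and none of 5 at 100 kb and over (1.52%). From 10 to 20 kb the share of marked genes was thus 14.3%, close to that of all coding genes. In replicate 2, 14 of 16 genes from 5 to 10 kb and 9 of 10 from 20 to 50 kb reached 20%, where 23.5% and 35.1% of all coding genes did. Over the 61 genes, mean coverage had a Pearson r of -0.03 with log10 length.

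Other genes of the pathway were measured with the same rule, as lists by role. Of 78 genes on chromosomes 1 to 19, 23 were marked, against the same background of 8.03%. The partners of TFIID and the Mediator kinase had 2 marked of 6. Tbp, the TATA-binding protein itself, had 30.3% and 54.2%, Btaf1, which removes it from DNA, had 25.0% and 48.1%, and the kinase gene Cdk19 had no peak. General transcription factors had 3 marked of 17 and medians of 4.58% and 21.8%. Their highest were the TFIIH helicase Ercc3, with 25.4% and 78.1%, and the TFIIF subunit Gtf2f1, with 28.1% and 74.6%, and the lowest was Mnat1, of the TFIIH kinase, with 0 and 0.521%.

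Elongation factors had 9 marked of 27, 22 at 20% or more in replicate 2, and medians of 10.9% and 40.5%. Nelfb, of the pausing factor NELF, had 26.8% and 74.1%, the histone chaperone Ssrp1 had 28.5% and 72.1%, and Cdc73, of the PAF complex, had 1.73% and 5.54%. Setd2, the enzyme that writes the mark, had 19.8% and 44.4%, just under the limit in replicate 1. SAGA partners had 5 marked of 13 and medians of 14.6% and 45.7%, led by the scaffold Trrap, with 39.3% and 85.2%, and the acetyltransferase Kat2a, with 28.5% and 59.0%, while Supt3 and Tada2b had no peak. Subunits of Pol I and Pol III alone had 4 marked of 15, all of Pol III, with medians of 1.51% and 32.0%. The highest was Polr3a, the catalytic subunit of Pol III, with 45.1% and 84.3%, followed by Polr3f with 43.4% and 58.7%. Among the marked pathway genes named, Tbp overlaps Pdcd2 and Ssrp1 overlaps P2rx3, and covered bases in those overlaps were not counted apart. Initiation genes, elongation genes and genes of the other polymerases each held marked and unmarked members, and no difference between the lists was tested.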

How the data were processed

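H3K36me3 ChIP-seq of 2 replicates was used as 4 deposited narrowPeak lists on mm10: 1 per replicate, kept when found in pseudoreplicates, a pooled list and a replicated list, per the labels and the deposited list of files. Each peak's enrichment is the authors' ratio (fold over the background of their caller), and its −log10 p and −log10 q are the authors' deposited values. They served only to describe or filter peaks. Aligner, caller and versions: not given in the sources used here. No read counts are in the lists, so the depth is unknown and counting intervals cannot be given.

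Genes came from GENCODE M21, with the longest record per symbol and the span of all its transcripts as gene body. Coverage, bins of the body, distances and overlaps were computed with Python 3.11.15 and numpy 2.4.6, and correlations with scipy 1.17.1. The coverage step was first tested on simulated data. Full values were given to the 3 highest and 2 lowest genes of each complex, paralogue pairs, the 5 largest gaps, genes next to the limit, the 2 highest and the lowest of each pathway list, and every X-linked relative. Genes outside that rule were named after their values were seen, as were those whose sequences are shown. The genes, lists, complexes and limits were chosen with earlier results of these data known. Alternatives covered the limit, peak filters, the combined lists, each replicate alone, lists of equal length, overlapped bases, transcripts and the genes used for positions. Signal tracks and the control experiment were not used here.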

Additional observations from a re-analysis of the deposited data

How the results depend on the processing

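The 14 marked genes of the initiation machinery and the 23 marked pathway genes moved with the limit and the list. With a limit of 50% in both replicates the counts were 0 and 0 (0.433% of all coding genes), and with a limit of 10% 20 and 36 (16.0%). Keeping peaks with a −log10 q from 5 gave 3 and 5 (1.52%), and keeping those with an enrichment from 3 gave 9 and 15 (5.12%). The authors' pooled and replicated lists each gave 39 and 56 (26.4% and 25.3%). Leaving out a replicate gave 14 to 39 and 23 to 52, the higher values without replicate 1. Lists of equal length gave 10 and 16 (5.75%), bases outside other coding genes 12 and 22 (7.64%), and the longest coding transcript 15 and 22 (8.16%). Median coverage (mean of the replicates) of the other Taf genes was 42.6% with the pooled list, against 18.7%, and that of TFIID 37.9% with the replicated list, against 19.4%. Pol II had 46.7% with the pooled list and 8.74% with lists of equal length, against 20.5%, and Mediator 29.2% and 2.93%, against 16.6%. Coverage of the last of 10 bins was 45.6% over all genes of at least 5 kb with a peak in both replicates, against 60.1%. In all, 45 of 61 alternative values stayed within 1 SD between the replicates, or within 1.5 times for counts. For the medians by complex that SD was 14.8 to 29.0 points, about as large as the medians, so staying within it says little. The cause of these moves was not tested. No paired analysis was possible because there was 1 group. Unknown depth limits what a gene without a peak means: H3K36me3 there was not called, which does not show that it was absent.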
